A study of Mus musculus with 12 samples.

Results

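The 10 genes described here, Slc2a1, Slc2a4, Hk1, Hk2, Pfkfb2, Pfkfb3, Pfkm, Gapdh, Ldha and Ldhb, belong to glucose uptake and glycolysis in the heart. They were chosen by symbol from 52858 genes in the deposited expression files, and all 10 were among the 15240 genes with enough reads to be tested. RNA sequencing was performed on 12 mouse hearts, 3 in each of 4 groups, and all hearts were excised and perfused ex vivo on a Langendorff system. C57-non-IR and C57-IR hearts came from adult male C57BL/6J mice and were perfused throughout or taken through global ischemia and reperfusion (IR), respectively. Slit2-non-IR and Slit2-IR hearts received the same 2 perfusions and came from Slit2-Tg mice, which carry a human Slit2 cDNA behind the CMV promoter. That promoter is not restricted to cardiomyocytes, and the transgenic founders were made in C57 × CBA oocytes. Levels are given as FPKM, here fragments scaled to gene length and to a size factor of each library. Mouse Slit2 stood at 0.180, 0.222 and 0.184 FPKM in C57-non-IR and 0.182, 0.184 and 0.169 FPKM in Slit2-non-IR hearts. It stood at 0.282, 0.235 and 0.213 FPKM in C57-IR and 0.153, 0.813 and 0.0847 FPKM in Slit2-IR hearts. The paper reports higher Slit2 mRNA in Slit2-Tg hearts. Whether reads of the human transgene count toward the mouse gene was not tested. The labels give the genotype, and IR or non-IR was read from the letters in each sample's label.

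Glucose enters a cardiomyocyte through facilitative transporters and is trapped by hexokinase as glucose 6-phosphate. Phosphofructokinase then commits it to glycolysis, and the bifunctional Pfkfb enzymes set the level of fructose 2,6-bisphosphate, the strongest activator of phosphofructokinase. The adult heart runs mainly on fatty acids, and ischemia raises its reliance on glycolysis, at the end of which lactate dehydrogenase interconverts pyruvate and lactate.

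Several of these genes are textbook targets of the hypoxia-inducible factors, whose response element has the core ACGTG. That core was searched on both strands in the 250 bases before each RefSeq transcription start (GRCm38.p6, the build of the files). It was present in 9 of 17 windows belonging to 6 of the 9 genes with a listed window, and in 16.6% of the 32851 windows of all genes. The sites of the 2 genes whose RNA passed the test after IR are shown first, then a site each of Hk2 and Ldha, whose RNA did not. Capitals mark ACGTG or its reverse complement on the gene's own strand.
Slc2a1, chr4:119108697-119108725, plus strand: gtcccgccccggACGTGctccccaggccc
Pfkfb3, upstream start, chr2:11553973-11554001, minus strand: ctccgcgccgtgACGTGccaagctgtgac
Pfkfb3, downstream start, chr2:11502126-11502154, minus strand: acccttctctccACGTGaaagggggctgg
Hk2, chr6:82774490-82774518, minus strand: aatgagcacatcCACGTcactgtccgggg
Ldha, chr7:46845745-46845773, plus strand: ggcccagcctacACGTGggttcccgcacg

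The Slc2a1 core began 36 bases before the start, the Pfkfb3 cores 60 and 52 bases before their starts, the Hk2 core 52 bases and the Ldha core 47 bases before. The site at the downstream Pfkfb3 start and that of Ldha each lay inside the E-box CACGTG, which 6.02% of all windows held. Pfkfb2 and Pfkm also held ACGTG in at least 1 window, whereas the windows of Hk1, Gapdh and Ldhb did not. The cyclic AMP response element core GACGTC stood in an Ldha window and in 3.77% of all windows. A letter match was therefore found in genes that passed the test and in genes that did not.

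Each library held between 16601154 and 24841291 reads on genes, as recovered from FPKM. Replicate 1 stood apart in every group. The chi-square per gene between replicate 1 and another library of its group was 35.9 to 54.3, against 8.66 to 39.5 between replicates 2 and 3. The summed ventricular cardiomyocyte markers were highest in replicate 1 of all 4 groups, and the fibroblast, mural and macrophage sums were lowest in it. Slit2-IR replicate 1 also had an atrial marker sum of 1695 FPKM, against 26.6 to 240.4 in the other 11 libraries. The atrial sum spanned 26.6 to 113.6 FPKM in non-IR and 70.8 to 1695 FPKM in IR hearts, ranges that overlapped. The 5 tested atrial markers had a median log2 difference of 1.501 after IR over both genotypes, and 0 of them passed. The labels do not say what the replicate numbers share. In bulk tissue, fewer cells of a type and less RNA per cell cannot be told apart.

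Slc2a1 and Pfkfb3 were higher after IR, and the other 8 genes did not pass the test. The contrast was the IR minus non-IR difference in log2(FPKM + 1), averaged over both genotypes and tested with limma across all tested genes. With the Benjamini-Hochberg adjusted p below 0.05, 2 of 10 genes rose and 0 fell, against 2.34% of all tested genes that rose and 1.15% that fell (3.49% in either direction). The median log2 difference of the 10 genes was 0.14, and that of all tested genes was 0.00. The groups of 6 IR and 6 non-IR libraries did not overlap for 1 of the 10 genes, Pfkfb3, and for 3.41% of all tested genes.

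**Figure D1:**
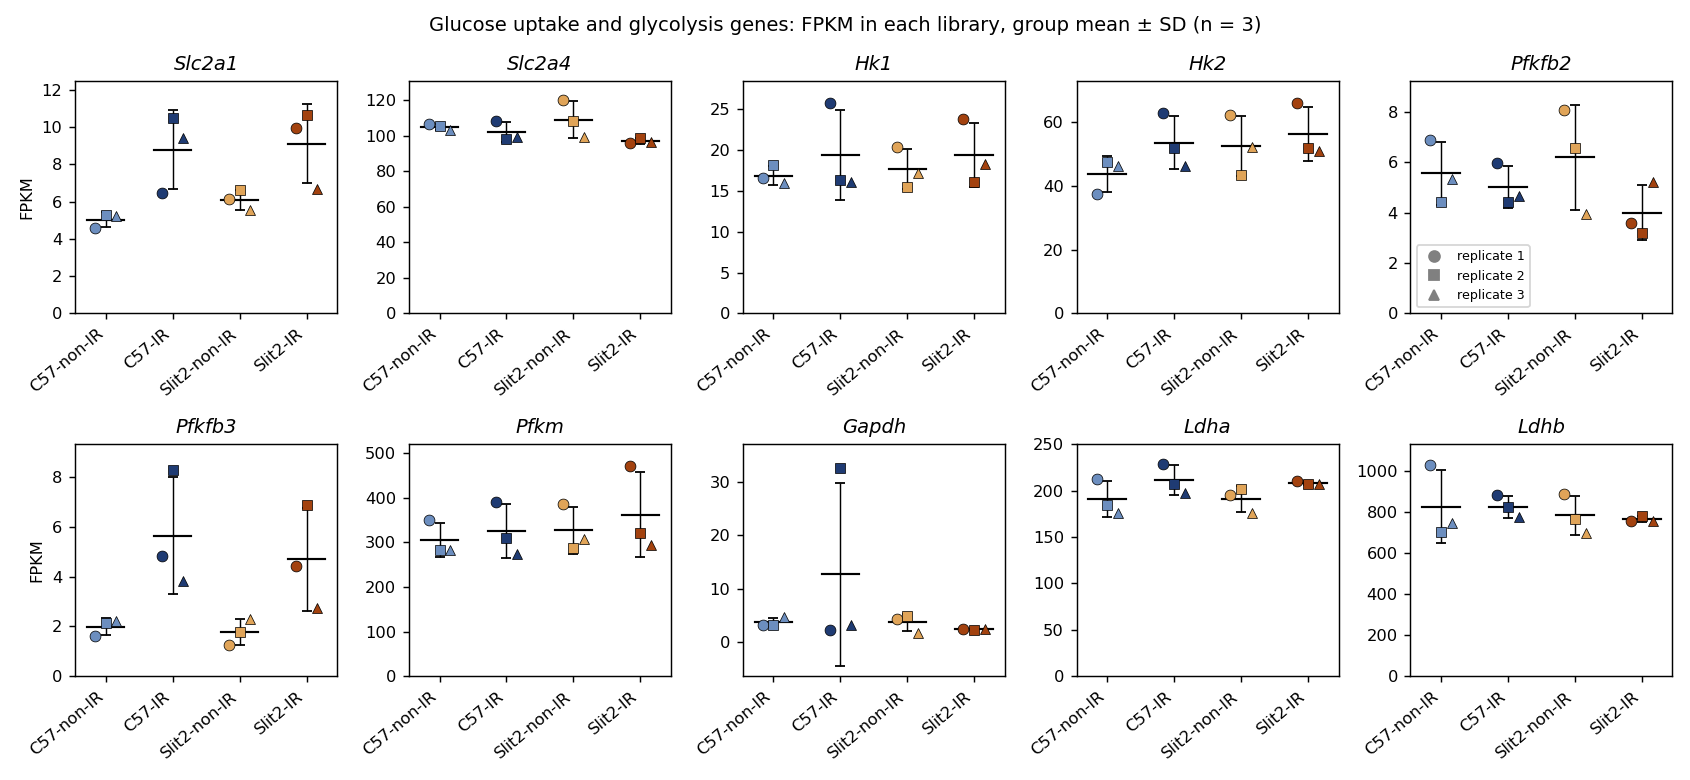
FPKM (linear axis) of each of the 10 genes by group, with 1 point per library, the marker shape giving the replicate number, and a line with bars for the group mean ± SD (n = 3). Pfkfb3 reached 2.76 to 8.31 FPKM in the 6 IR hearts and 1.27 to 2.29 in the 6 non-IR hearts, and Gapdh stood far above its other libraries in C57-IR replicate 2.

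The glucose transporters differed widely in level. Slc2a4 encodes GLUT4, the insulin-responsive transporter of muscle and fat, and averaged 103.4 FPKM over the 12 libraries. Slc2a1 encodes GLUT1, the transporter of basal uptake, and averaged 7.25 FPKM. FPKM is scaled to gene length, so the levels of the 2 genes can be set side by side.

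Slc2a1 stood at 4.57, 5.26 and 5.24 FPKM in C57-non-IR hearts and at 6.44, 10.5 and 9.40 FPKM in C57-IR hearts. It stood at 6.15, 6.60 and 5.52 FPKM in Slit2-non-IR hearts and at 9.93, 10.7 and 6.69 FPKM in Slit2-IR hearts. Within each genotype every IR heart was above every non-IR heart, although C57-IR replicate 1 lay below 1 Slit2-non-IR heart. Mean FPKM ± SD (n = 3) was 5.02 ± 0.392 in C57-non-IR, 8.78 ± 2.10 in C57-IR, 6.09 ± 0.543 in Slit2-non-IR and 9.09 ± 2.11 in Slit2-IR hearts. The 6 IR hearts averaged 8.94 FPKM, 1.61 times the 5.56 FPKM of the 6 non-IR hearts. The fitted log2 difference over both genotypes was 0.58 ± 0.13 (SE; 95% interval 0.30 to 0.86; limma adjusted p = 0.0319).

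The Slc2a1 call was close to the threshold. It was kept in 8 of 21 alternative fits, with limma adjusted p from 0.00637 to 0.0808, and the log2 difference stayed between 0.50 and 0.68. Without all 4 replicate 1 libraries the log2 difference was 0.62 (limma adjusted p = 0.0691), and without Slit2-IR replicate 1 it was 0.55 (adjusted p = 0.0802). Of the fits with 1 library left out, those without C57-IR replicate 1 and without Slit2-IR replicate 3 kept the call, and each of the others lost it (limma adjusted p from 0.0582 to 0.0808). GLUT1 is also carried by endothelial cells. The summed endothelial markers spanned 122.7 to 169.8 FPKM in non-IR and 117.5 to 179.04 FPKM in IR hearts, and 0 of 6 passed the test (median log2 difference -0.07). The red blood cell sum spanned 4.53 to 48.8 FPKM in non-IR and 1.47 to 12.9 FPKM in IR hearts, with 0 of 4 passing (median -0.85). The fibroblast sum spanned 105.8 to 194.0 FPKM in non-IR and 117.0 to 213.7 FPKM in IR hearts, with 0 of 6 passing (median 0.30). The part of these sums in the Slc2a1 difference was not tested. The atrial sums of the IR and non-IR hearts overlapped, and their part in the Slc2a1 and Pfkfb3 differences was not tested beyond leaving out Slit2-IR replicate 1.

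Slc2a4 stood between 103.2 and 106.4 FPKM in C57-non-IR hearts and between 98.3 and 108.5 FPKM in C57-IR hearts. It spanned 99.2 to 119.9 FPKM in Slit2-non-IR hearts and 96.03 to 99.02 FPKM in Slit2-IR hearts, and these 2 groups did not overlap. Over both genotypes the log2 difference was -0.10 ± 0.06 (SE; limma adjusted p = 0.483), so the 95% interval of -0.24 to 0.03 bounds any fall. The linear ratio of Slc2a1 to Slc2a4 FPKM was 0.0519 ± 0.00602 in the 6 non-IR hearts and 0.0902 ± 0.0208 in the 6 IR hearts (SD). GLUT4 thus remained the more abundant transporter RNA in every library. The adipocyte sum, from cells that also carry GLUT4, spanned 0 to 8.01 FPKM in non-IR and 0.122 to 17.3 FPKM in IR hearts. Of its 5 tested markers 0 passed, and the part of this sum in the Slc2a4 values was not tested.

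Hexokinase 2, the isoform typical of heart and skeletal muscle, exceeded the more widespread hexokinase 1 in FPKM in all 12 libraries. The ratio of Hk2 to Hk1 FPKM was 2.78 ± 0.301 in the 6 non-IR hearts and 2.87 ± 0.287 in the 6 IR hearts (SD). The size of this ratio depends on the lengths used. They were 8532 bases for Hk1 and 5969 bases for Hk2, against 4278 and 5513 bases in their longest protein-coding transcripts. Hk2 stood at 37.4, 47.5 and 46.4 FPKM in C57-non-IR hearts and at 62.8, 52.0 and 46.1 FPKM in C57-IR hearts. In Slit2-Tg hearts it spanned 43.5 to 62.3 FPKM without IR and 50.9 to 66.1 FPKM after IR, so the groups overlapped in both genotypes. The log2 difference over both genotypes was 0.19 ± 0.12 (SE; 95% interval -0.06 to 0.45; limma adjusted p = 0.483).

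Hk1 spanned 15.5 to 20.4 FPKM in the non-IR hearts and 16.1 to 25.8 FPKM in the IR hearts. Its IR means rested on replicate 1, which read 25.8 FPKM in C57-IR and 23.8 FPKM in Slit2-IR hearts, while the other 4 IR libraries lay within the non-IR range. The log2 difference over both genotypes was 0.14 ± 0.13 (SE; limma adjusted p = 0.702).

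Pfkm, the muscle subunit of phosphofructokinase, was more abundant than Pfkfb2 and Pfkfb3, the other genes of the 10 at that step. It stood at 350.4, 282.6 and 284.1 FPKM in C57-non-IR and at 391.7, 309.3 and 274.0 FPKM in C57-IR hearts. It read 387.2, 287.9 and 307.2 FPKM in Slit2-non-IR and 472.6, 320.6 and 294.8 FPKM in Slit2-IR hearts. Replicate 1 was the highest library of every group, and 6.40% of all tested genes had that pattern. The log2 difference between IR and non-IR over both genotypes was 0.10 ± 0.14 (SE; 95% interval -0.21 to 0.41; limma adjusted p = 0.819).

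Pfkfb3, which encodes the isoform of the bifunctional enzyme with the strongest kinase activity, had the largest fitted IR difference of the 10 genes. It stood at 1.62, 2.14 and 2.23 FPKM in C57-non-IR and at 4.84, 8.31 and 3.82 FPKM in C57-IR hearts. It read 1.27, 1.78 and 2.29 FPKM in Slit2-non-IR and 4.42, 6.90 and 2.76 FPKM in Slit2-IR hearts. All 6 IR hearts lay above all 6 non-IR hearts, and replicate 2 was the highest IR heart in both genotypes. Mean FPKM ± SD (n = 3) was 1.99 ± 0.332 in C57-non-IR, 5.66 ± 2.35 in C57-IR, 1.78 ± 0.510 in Slit2-non-IR and 4.69 ± 2.08 in Slit2-IR hearts. The linear ratio of the IR to the non-IR mean was 2.74, and between 199 and 1256 reads lay behind each value.

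The fitted log2 difference of Pfkfb3 over both genotypes was 1.04 ± 0.20 (SE; 95% interval 0.60 to 1.48; limma adjusted p = 0.016). The call was kept in 19 of 21 alternative fits, and the log2 difference ranged from 0.91 to 1.38. It was lost without all 4 replicate 1 libraries, where the log2 difference was 0.96 (limma adjusted p = 0.145). It was also lost without the filter on low genes, with adjusted p = 0.0515 at an unchanged difference. Without Slit2-IR replicate 1, the library with the highest atrial sum, the log2 difference was 1.04 (limma adjusted p = 0.0421).

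Pfkfb2, the cardiac isoform that insulin and adrenergic signals activate by phosphorylation, did not pass the test. It stood at 6.90, 4.42 and 5.34 FPKM in C57-non-IR and at 5.96, 4.42 and 4.68 FPKM in C57-IR hearts. It read 8.06, 6.57 and 3.96 FPKM in Slit2-non-IR and 3.60, 3.19 and 5.23 FPKM in Slit2-IR hearts, and the groups overlapped in both genotypes. The log2 difference over both genotypes was -0.31 ± 0.16 (SE; 95% interval -0.67 to 0.05; limma adjusted p = 0.404). The ratio of Pfkfb3 to Pfkfb2 FPKM was 0.157 to 0.578 in the non-IR hearts and 0.528 to 2.16 in the IR hearts, ranges that overlapped.

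The genes whose pattern over the 12 libraries was most like these 2 were taken by the mean absolute difference of their deviations in log2(FPKM + 1) from each gene's own mean. For Pfkfb3 they were Casp4, an inflammatory caspase (0.15), and Rnd3 (0.17), where the own mean deviation of Pfkfb3 was 0.54. For Slc2a1 they were Acp5, an acid phosphatase (0.10), and Tra2b, a splicing factor (0.10), where the own mean deviation of Slc2a1 was 0.32. Acp5 was a low gene, at 0.0578 to 1.05 FPKM.

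**Figure D2:**
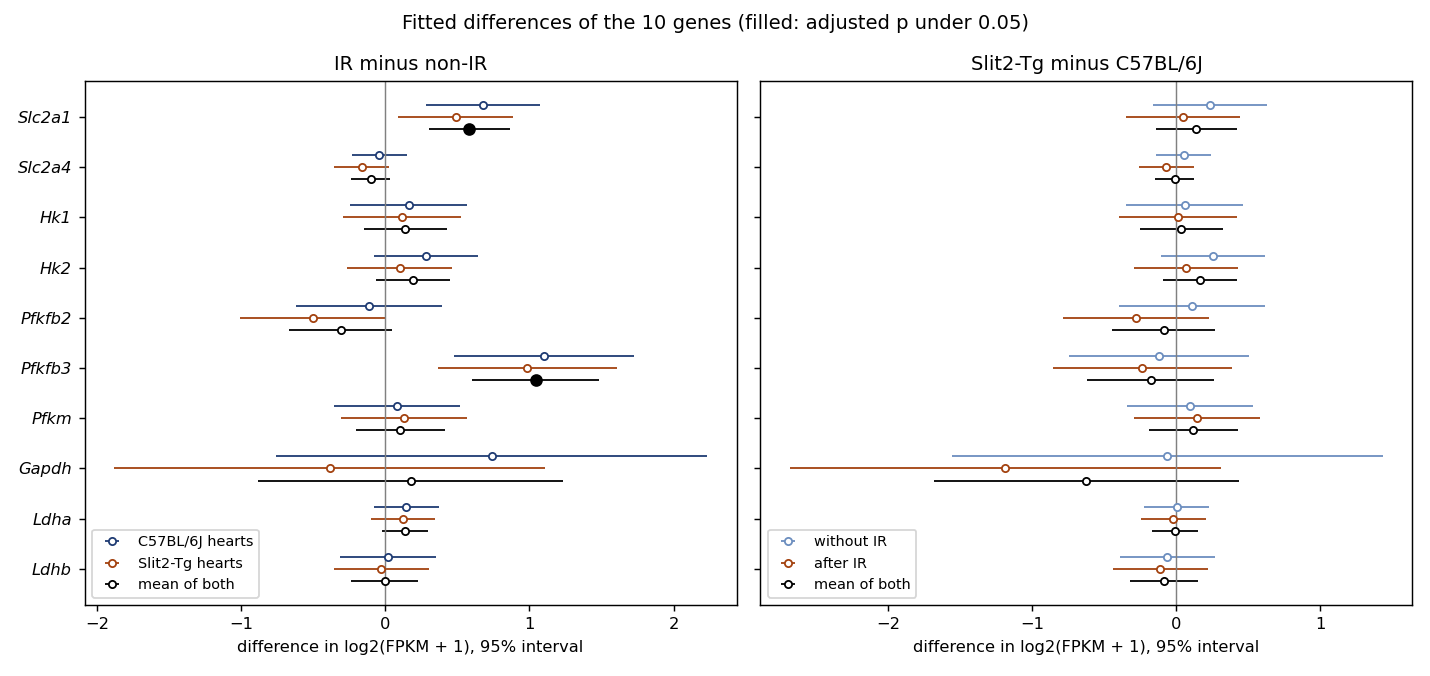
Fitted differences in log2(FPKM + 1) with 95% intervals for the 10 genes, IR minus non-IR on the left and Slit2-Tg minus C57BL/6J on the right. Filled points (limma adjusted p below 0.05) are the means over both genotypes of Slc2a1, at 0.58, and Pfkfb3, at 1.04, and no point on the right is filled.

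Gapdh, the glyceraldehyde 3-phosphate dehydrogenase often used as a reference gene, was listed far below its neighbours in the pathway. It stood at 3.30, 3.16 and 4.67 FPKM in C57-non-IR and at 2.25, 32.6 and 3.32 FPKM in C57-IR hearts. It read 4.43, 4.88 and 1.80 FPKM in Slit2-non-IR and 2.49, 2.25 and 2.53 FPKM in Slit2-IR hearts. C57-IR replicate 2 was thus the only library above 5 FPKM, whereas Tpi1 averaged 239.4 FPKM and Pgk1 151.4 FPKM over the same hearts. These genes encode the enzymes just before and just after it. The length used for Gapdh was 4133 bases, against 1420 bases in its longest protein-coding transcript, and the part of this in its low FPKM was not tested.

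The log2 difference of Gapdh in C57BL/6J hearts was 0.74 (limma adjusted p = 0.903) with C57-IR replicate 2 and -0.32 without it. The Gapdh gene spans chr6:125161715-125166467 on the minus strand. Of the 50-base windows of its longest protein-coding transcript, 82.5% also occurred in transcripts of other genes in GENCODE. The gene sharing the most, Gm7336, held 1131 of 1371 windows. The share was 27.0% for Ldhb, 25.1% for Pfkfb2, 16.7% for Ldha and at most 2.55% for the other 6 genes. How the deposited counting treated reads that match several genes is not given in the sources used here, so the level of Gapdh is uncertain, and the part of these shared windows in it was not tested. The span of the opposite-strand gene Iffo1, at a mean of 2.27 FPKM, overlaps that of Gapdh. Opposite-strand coding genes also overlap Pfkm (Senp1, mean 1.05 FPKM) and Pfkfb2 (Yod1, mean 0.719 FPKM). Without known strand use, reads on any shared exon bases cannot be assigned to 1 of the genes, and the overlap of exons was not computed.

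**Figure D3:**
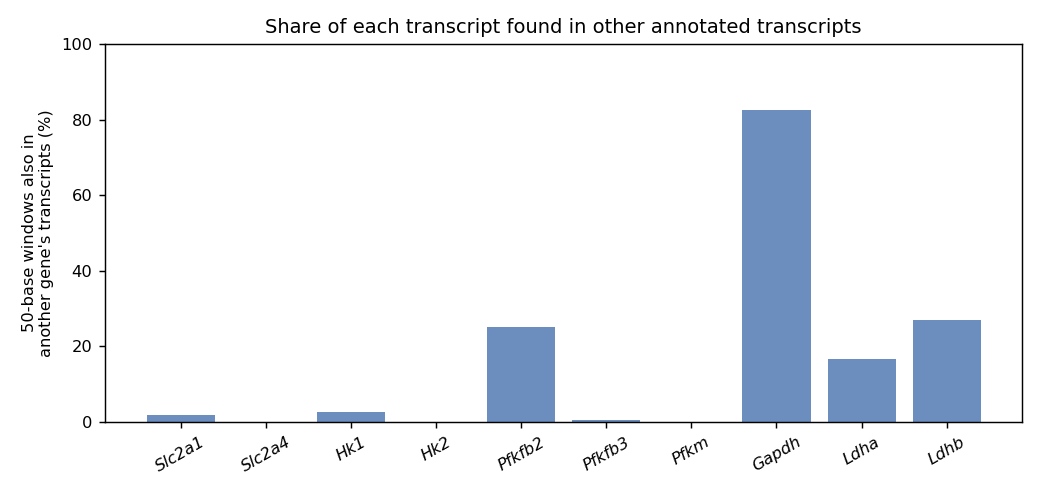
Percentage of the 50-base windows in the longest protein-coding transcript of each of the 10 genes that also occur, on either strand, in annotated transcripts of other genes. The Gapdh bar reaches 82.5%, and the bars of Ldhb, Pfkfb2 and Ldha reach 27.0%, 25.1% and 16.7%.

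GAPDH also served as the normalizer of the study's quantitative PCR, and its listed primers are shown because of what they match. Capitals mark bases that differ from the closest stretch of the same length in a protein-coding Gapdh transcript.
GAPDH forward primer: TggatttggAcgCattggTc
GAPDH reverse primer: TtTGCactggTacGtgtTgaT

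The forward primer differed from Gapdh at 4 of 20 bases and the reverse primer at 8 of 21 bases. Among 141767 annotated transcripts, exact matches of both primers were found in transcripts of 1 gene, Gapdhs, the sperm-specific paralog. On GRCm38 the forward match joined exons 2 and 3 of Gapdhs-203 (chr7:30737003-30737800, minus strand) and the reverse match joined exons 4 and 5 (chr7:30733339-30736635). Gapdhs was listed at 0.0516 to 0.583 FPKM in the 12 libraries. Whether the primers amplify Gapdh was not tested.

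The lactate dehydrogenase subunits and Pfkm were the 3 most abundant RNAs of the 10. Ldhb, the heart-type subunit, averaged 801.6 FPKM, and Ldha, the muscle-type subunit, averaged 200.5 FPKM. Ldhb spanned 699.1 to 1032 FPKM in the non-IR hearts and 757.1 to 883.8 FPKM in the IR hearts, its 2 highest libraries being C57-non-IR replicate 1 and Slit2-non-IR replicate 1. Its log2 difference over both genotypes was 0.00 ± 0.11 (SE; 95% interval -0.24 to 0.23; limma adjusted p = 0.992).

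Ldha stood at 212.9, 184.7 and 175.9 FPKM in C57-non-IR and at 229.2, 207.4 and 197.8 FPKM in C57-IR hearts, which overlapped. It read 195.6, 202.1 and 175.6 FPKM in Slit2-non-IR and 210.8, 207.03 and 206.8 FPKM in Slit2-IR hearts, which did not. The log2 difference over both genotypes was 0.14 ± 0.07 (SE; 95% interval -0.02 to 0.29; limma adjusted p = 0.404). The ratio of Ldha to Ldhb FPKM was 0.240 ± 0.0235 in the non-IR and 0.264 ± 0.0104 in the IR hearts (SD, n = 6). The lengths behind it were 3310 bases for Ldha and 1570 bases for Ldhb, against 1815 and 1304 bases in their longest protein-coding transcripts.

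Within a single genotype, no gene of the 10 passed. In C57BL/6J hearts IR called 0 of 10 genes with limma (0.459% of all tested genes), and 2 genes, Pfkfb3 (log2 difference 1.10) and Slc2a1 (0.68), had an unadjusted p below 0.05 in limma, as did 8.96% of all tested genes. The C57-IR and C57-non-IR groups did not overlap for those 2 genes and for 13.8% of all tested genes. In Slit2-Tg hearts IR called 0 of 10 genes with limma (0.525% of all tested genes), and Pfkfb3 (0.99) and Slc2a1 (0.49) again had an unadjusted p below 0.05 in limma, against 11.2% of all tested genes. The Slit2-IR and Slit2-non-IR groups did not overlap for 4 of 10 genes, with Slc2a1, Pfkfb3 and Ldha higher and Slc2a4 lower after IR, and for 16.9% of all tested genes. With the replicate number as a block, 0 of 10 genes passed in Slit2-Tg hearts while 202 tested genes (1.33%) did in place of 80. Limma-voom on the recovered reads also called 0 of 10 in each genotype. Of all 15240 tested genes it called 32 for IR in C57BL/6J hearts and 121 for IR in Slit2-Tg hearts.

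Slit2-Tg and C57BL/6J hearts did not differ in any of the 10 genes past the threshold. Without IR, limma called 0 of 10 genes (0.0394% of all tested genes), 0 had an unadjusted p below 0.05 (3.19%), and the log2 differences of Slit2-Tg from C57BL/6J ran from -0.12 for Pfkfb3 to 0.25 for Hk2. Slc2a1 was the only gene whose groups did not overlap without IR (log2 difference 0.23, 95% interval -0.16 to 0.63). All Slit2-non-IR hearts lay above all C57-non-IR hearts for it. The groups did not overlap, in either direction, for 9.2% of all tested genes. After IR, limma called 0 of 10 genes (0.0459%), 0 had an unadjusted p below 0.05 (3.16%), and 0 had groups that did not overlap (6.47%). The log2 differences after IR ran from -1.18 for Gapdh, where C57-IR replicate 2 sets the C57-IR mean, to 0.14 for Pfkm.

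Averaged over both conditions, limma called 0 of 10 genes between the genotypes (0.131%), 0 had an unadjusted p below 0.05 (4.13%), and 0 were without overlap between genotypes (0.413%). The 95% intervals bound the genotype difference of Slc2a1 to -0.14 to 0.42 and that of Slc2a4 to -0.14 to 0.13 on the log2 scale. The interval was -0.09 to 0.42 for Hk2 and -0.62 to 0.26 for Pfkfb3. The interaction of Slit2-Tg and IR called 0 of 10 genes with limma (0% of all tested genes), and 0 had an unadjusted p below 0.05 (1.86%). Its estimate was -0.19 for Slc2a1 (95% interval -0.75 to 0.37) and -0.12 for Pfkfb3 (-0.995 to 0.76), so differences in the IR response of those sizes were not detectable here.

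**Figure D4:**
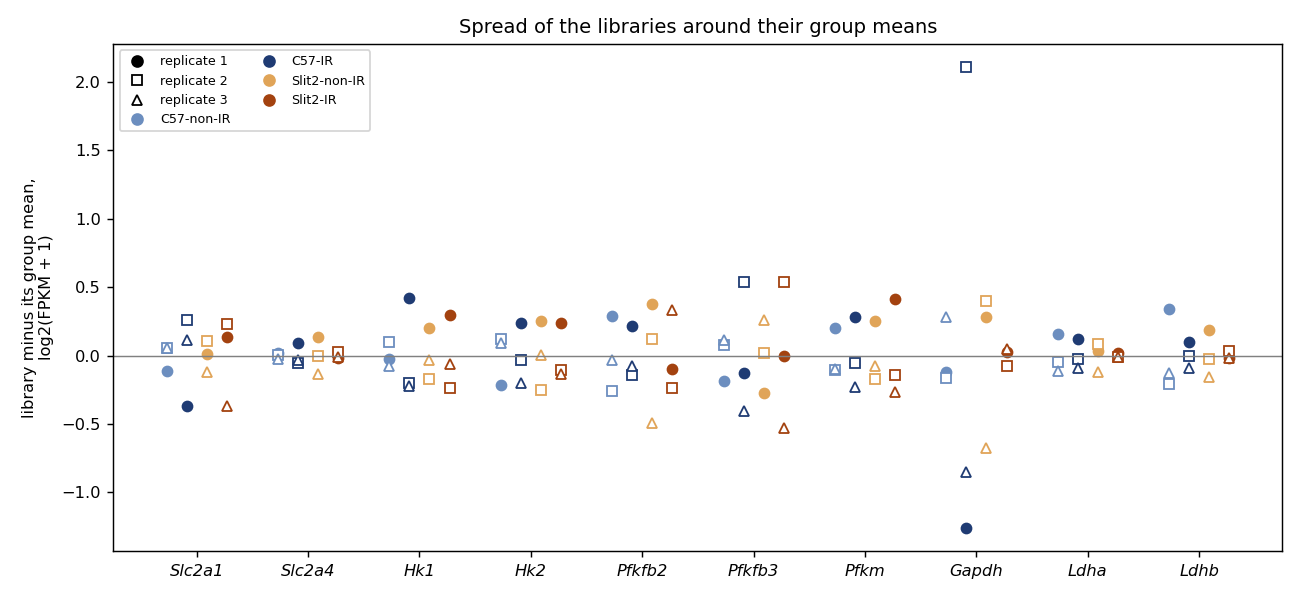
Deviation of each library from its group mean in log2(FPKM + 1) for the 10 genes, with filled circles for replicate 1 and colors for the 4 groups. Replicate 1 lies above the mean in all 4 groups for Pfkm and below its C57-IR mean for Slc2a1, and C57-IR replicate 2 is the point above 2 for Gapdh.

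A wider list of 70 genes of glucose uptake, glycolysis, lactate, glycogen and their regulators, apart from the 10, had 67 tested members. Over both genotypes 4 of them rose after IR and 0 fell with limma, the 2.34% and 1.15% above being the shares of all tested genes. The median log2 difference of the list was 0.03. The 4 genes were Irs2, Myc, Slc16a3 and Arrdc4, and for each of them all 6 IR hearts lay above all 6 non-IR hearts.

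Irs2, an adaptor of the insulin receptor, stood at 2.15 to 4.24 FPKM in the non-IR and 11.9 to 38.4 FPKM in the IR hearts. Its log2 difference was 2.55 ± 0.30 (SE; limma adjusted p = 0.00173). Irs1, its paralog, spanned 0.706 to 3.16 FPKM in non-IR and 0.973 to 2.20 FPKM in IR hearts. Arrdc4, an arrestin-fold protein related to Txnip that limits glucose uptake, stood at 3.62 to 4.39 FPKM in the non-IR and 5.18 to 7.03 FPKM in the IR hearts (log2 difference 0.48 ± 0.07 SE, limma adjusted p = 0.00473). Txnip itself, the most abundant gene of that group, overlapped at 198.7 to 277.1 FPKM and 168.8 to 290.3 FPKM. In all, 2 of 11 genes of GLUT4 traffic and uptake control rose and 0 fell.

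Slc16a3 encodes MCT4, a monocarboxylate transporter that exports lactate. It stood at 0.557 to 0.751 FPKM in the non-IR and 1.45 to 3.58 FPKM in the IR hearts (log2 difference 1.01 ± 0.14 SE, limma adjusted p = 0.00346). It was the only 1 of 13 lactate and pyruvate genes to pass, and Pdha1, the most abundant of them, overlapped between the conditions. Slc16a1, which encodes the lactate transporter MCT1, stood at 37.1 to 48.0 FPKM in non-IR and 36.6 to 57.6 FPKM in IR hearts.

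Myc, a transcription factor that acts on many glycolytic genes, stood at 1.21 to 3.77 FPKM in the non-IR and 10.9 to 35.8 FPKM in the IR hearts (log2 difference 2.48 ± 0.30 SE, limma adjusted p = 0.00199). It was the only 1 of 9 transcription factors on the list to pass. Hif1a, a subunit of the hypoxia-inducible factor, did not overlap between 6.20 to 8.25 FPKM in non-IR and 8.30 to 11.8 FPKM in IR hearts but missed the threshold (log2 difference 0.36 ± 0.10 SE, limma adjusted p = 0.0701). Epas1, the most abundant of the group, had a log2 difference of -0.20 ± 0.07 (SE; adjusted p = 0.189).

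The enzymes of glycolysis itself did not pass. Of 9 tested genes of lower glycolysis 0 rose and 0 fell, and the group median was a log2 difference of 0.01. Eno3, the muscle enolase and the most abundant of them, stood at 658.3 to 839.2 FPKM in non-IR and 680.0 to 747.9 FPKM in IR hearts, and Bpgm had the smallest p of the group (log2 difference -0.09 ± 0.06 SE, limma adjusted p = 0.564). None of the 7 tested isomerase and phosphofructokinase genes passed, with Gpi1 at 64.1 to 95.7 FPKM and 67.3 to 92.1 FPKM and Pfkp at a log2 difference of 0.17. None of the 2 tested other hexokinases passed.

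Among 5 other transporters 0 passed. Slc2a3, the GLUT3 gene, stood at 0.287 to 0.502 FPKM in non-IR and 0.467 to 0.912 FPKM in IR hearts (log2 difference 0.24 ± 0.06 SE, limma adjusted p = 0.0761), and Slc2a8 was the most abundant at a mean of 5.26 FPKM. Among 11 glycogen genes 0 passed. The gene listed under the symbol Pgm1 did not overlap between 2.20 to 3.28 FPKM in non-IR and 3.37 to 6.20 FPKM in IR hearts (log2 difference 0.55 ± 0.14 SE, limma adjusted p = 0.064). Which phosphoglucomutase that symbol stands for was not checked. Pygm, the muscle glycogen phosphorylase and the most abundant of the group, did overlap (0.02 ± 0.16 SE). Between genotypes and for the interaction, 0 of the 67 genes passed in limma. An unadjusted p below 0.05 in limma was found for 1 of the 67 without IR (3.19% of all tested genes), 4 after IR (3.16%), 2 over both conditions (4.13%) and 4 for the interaction (1.86%).

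**Figure D5:**
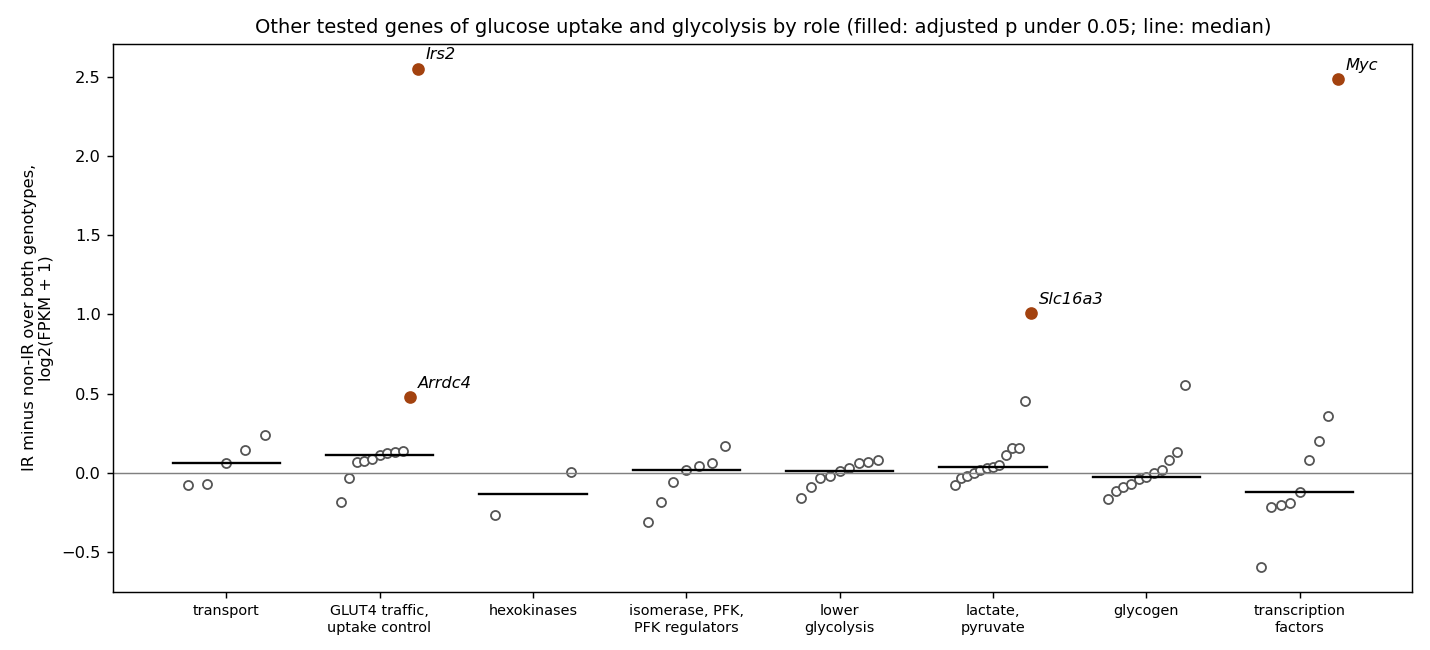
IR minus non-IR difference in log2(FPKM + 1) over both genotypes for 67 other genes of glucose uptake and glycolysis, grouped by role, with a line at each group's median. The filled points (limma adjusted p below 0.05) are Irs2 at 2.55, Myc at 2.48, Slc16a3 at 1.01 and Arrdc4 at 0.48, and the lower glycolysis genes lie around 0.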

How the data were processed

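Total RNA of 12 hearts was sequenced, and the authors deposited FPKM per gene and library in a table for each of the 4 groups. The processing notes name HISAT2 and mm10. The counting tool and the use of strand are not given in the sources used here. The product of FPKM and gene length gave a whole number of reads for 100% of values (tolerance 0.01 reads), from which the depth was taken. The step times the library's size factor (median of ratios over the recovered reads) was constant over the libraries (relative spread 4.01e-11). The deposited FPKM were thus scaled by these factors and not by total reads. All 12 columns were used.

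Tested genes had at least 10 reads at the median depth in at least 3 libraries and 15 reads in total. Log2(FPKM + 1), with a pseudocount of 1, was fitted with limma 3.58.1 (R 4.3.3), with a variance trend and the 4 groups in 1 fit. The pseudocount shrinks the differences of low genes. P-values were adjusted over all tested genes by the Benjamini-Hochberg method, with a threshold of 0.05. The labels call the 3 samples of a group independent. The fit was tested on simulated counts drawn independently for each library. They held no deviation shared by a replicate number, so the test does not cover that feature of these data.

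The 10 genes and the other lists were chosen with earlier results of these data known. Named genes are the 10, and from the wider list, in each role, the most abundant gene, the gene with the smallest p for IR over both genotypes and every gene that passed. A result of the wider list that this rule would name is not reported here. Irs1, Slc16a1, Hif1a, Tpi1 and Pgk1 were added after their values were seen. Libraries with the same number shared their deviations from the group means in all 3 pairs of Slit2-IR with Slit2-non-IR (correlations 0.143 to 0.294) and of Slit2-IR with C57-IR (0.154 to 0.362), each above 0.1, and in 2 of 3 pairs elsewhere. The alternatives were 22 other settings, among them another pseudocount, filters, scalings, a replicate block, limma-voom on recovered reads and leaving out libraries.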

Additional observations from a re-analysis of the deposited data

How the results depend on the processing

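Each of the 70 differences (10 genes in 7 contrasts) was recomputed under up to 22 other settings, giving 1510 values, of which 1407 kept their direction and side of the threshold. The alternative without all 4 replicate 1 libraries was chosen after seeing the data. Of the values that changed sign, 87 in number, 0 belonged to a difference that had passed the test, and the cause of each change was not tested. For IR over both genotypes the 2 genes called became 0 without the filter on low genes (more genes tested), 1 with total-read scaling, 0 without all 4 replicate 1 libraries (fewer samples) and 1 to 2 with 1 library left out. In the last case Pfkfb3 kept its call in all 12 fits and Slc2a1 kept it in those without C57-IR replicate 1 and without Slit2-IR replicate 3. For IR in C57BL/6J hearts 0 to 1 genes were called with 1 library left out, the 1 being Slc2a1 without C57-IR replicate 1. The replicate block changed no call of the 10 genes in any contrast. It moved the tested genes called from 80 to 202 for IR in Slit2-Tg hearts and from 7 to 9 for Slit2-Tg after IR. The move was from 70 to 174 for IR in C57BL/6J hearts and from 6 to 2 for Slit2-Tg without IR. In these last contrasts the correlations of libraries with the same number ran from 0.0833 to 0.295 and from 0.0377 to 0.324, and replicate 1 had the highest. Across the other settings the tested genes called ran from 7 to 175 (IR in C57BL/6J), 19 to 202 (IR in Slit2-Tg), 299 to 773 (IR over both), 0 to 11 (Slit2-Tg without IR), 3 to 10 (after IR), 6 to 22 (over both conditions) and 0 to 4 (interaction), and with 1 library left out from 3 to 254, 4 to 180, 329 to 713, 1 to 14, 4 to 12, 12 to 30 and 0 to 1, respectively.

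Without all 4 replicate 1 libraries the sign changed for IR in C57BL/6J hearts of Hk1 (-0.062), for IR in Slit2-Tg hearts of Ldhb (0.074), for IR over both genotypes of Ldhb (0.11), for Slit2-Tg without IR of Slc2a4 (-0.0089), Hk1 (-0.055) and Ldhb (0.013), for Slit2-Tg after IR of Slc2a1 (-0.21) and Ldha (0.031), for Slit2-Tg over both conditions of Slc2a1 (-0.018) and Ldha (0.047), and for the interaction of Hk1 (0.13) and Hk2 (0.046). Upper-quartile scaling changed the sign of Hk1 for Slit2-Tg after IR (-0.0071) and of Ldhb for IR in C57BL/6J hearts (-0.024). Total-read scaling changed that of Ldhb (-0.067) and Pfkm (-0.0069) for IR in C57BL/6J hearts.

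With 1 library left out, these differences spanned 0. For IR in C57BL/6J hearts they were Hk1 (-0.049 to 0.27), Pfkfb2 (-0.24 to 0.029), Pfkm (-0.063 to 0.19), Gapdh (-0.32 to 1.37) and Ldhb (-0.086 to 0.19). For IR in Slit2-Tg hearts they were Hk1 (-0.032 to 0.23), Hk2 (-0.028 to 0.23), Pfkm (-0.079 to 0.26) and Ldhb (-0.11 to 0.067). For IR over both genotypes they were Gapdh (-0.35 to 0.49) and Ldhb (-0.057 to 0.081). For Slit2-Tg without IR they were Slc2a4 (-0.018 to 0.12), Hk1 (-0.042 to 0.14), Pfkfb2 (-0.080 to 0.35), Pfkfb3 (-0.25 to 0.019), Pfkm (-0.032 to 0.20), Gapdh (-0.26 to 0.28), Ldha (-0.055 to 0.082) and Ldhb (-0.17 to 0.11). For Slit2-Tg after IR they were Slc2a1 (-0.14 to 0.23), Hk1 (-0.14 to 0.22), Hk2 (-0.049 to 0.19), Pfkfb3 (-0.50 to 0.036), Pfkm (-0.064 to 0.28) and Ldha (-0.066 to 0.040). For Slit2-Tg over both conditions they were Slc2a4 (-0.044 to 0.024), Hk1 (-0.039 to 0.14), Pfkfb2 (-0.18 to 0.038) and Ldha (-0.037 to 0.031). For the interaction they were Hk1 (-0.19 to 0.17), Pfkfb3 (-0.38 to 0.15), Pfkm (-0.16 to 0.19), Ldha (-0.10 to 0.038) and Ldhb (-0.22 to 0.059).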
